A study of Mus musculus with 52 samples.

Results

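HM-1 NT and B6NT, a pair of mouse embryonic stem (ES) cell lines, were compared directly on 4 two-colour cDNA arrays, out of 52 arrays in the series. The 4 arrays are those whose titles pair B6NT with HM-1 NT, and all 4 were used. The series covers 13 comparisons of 7 ES lines, with 4 arrays a comparison. HM-1 is an ES line long used for gene targeting, and HM-1 NT and B6NT carry the letters NT, which the labels do not spell out. Neither line has a treatment, time or age in the labels, and nothing states whether each is 1 clone. HM-1 NT was labelled with Cy5 and B6NT with Cy3 on arrays 1 and 2, and the dyes were exchanged on arrays 3 and 4. The protocol text of the labels also speaks of organs and of a reference pool from control animals, whereas the channel names give HM-1 NT and B6NT on all 4 arrays, and the channel names were used.

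Each value below is a log2 ratio of HM-1 NT over B6NT, so a positive value is a higher signal in HM-1 NT. That direction rests on reading the deposited value as Cy5 over Cy3, which the labels do not state. If it is Cy3 over Cy5, every sign below turns at once. The labels do not say whether the 4 arrays came from separate cultures or extracts. The p-values therefore measure only a spread between arrays, which may be technical. That spread was estimated over the whole series and not from these 4 arrays alone. An SE given below with n = 4 arrays rests on the same spread, so it is not the error of a gene's own 4 values. In bulk RNA, fewer cells of a type and less RNA per cell cannot be told apart.

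ES cells are held in the undifferentiated state by a small circuit of transcription factors, among them Pou5f1, Sox2 and Nanog, together with RNA-binding proteins and with secreted signals such as Nodal and its inhibitors of the Lefty family. ES lines are known to vary in genes whose state is set by chromatin and DNA methylation, such as imprinted genes, which are read from a single parental copy, and X-linked genes. Cultures are often grown on fibroblast feeders and can hold cells that have begun to differentiate.

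The 4 arrays measured 17652, 19212, 18428 and 17977 of 20794 probes. The central 90% of ratios ran from -1.75 to 2.04 on array 1 and from -1.45 to 1.46 on array 2. It ran from -1.90 to 1.66 on array 3 and from -1.89 to 1.87 on array 4, so array 2 was the narrowest. Over all features, agreement between arrays was weak. Spearman's rho across features was 0.19 for arrays 1 and 2 and 0.21 for arrays 3 and 4, each a pair of 1 dye orientation. Between arrays of opposite orientation it ran from -0.06 to -0.02 once the ratios were turned, and from 0.03 to 0.06 after each feature's mean on the other 48 arrays was taken off. These are correlations across features, which are not independent replicates. Exact values also recurred among far ratios. Of the probes more than 2 log2 units from 0, between 33.9% and 58.8% on an array shared their exact value with at least 4 other probes of that array, and this is given below for each called gene named that it touches. What makes these values recur was not tested.

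Of 15221 features tested, which are genes or unnamed probes, 158 (1.04%) passed an adjusted p of 0.05 in limma with Benjamini-Hochberg adjustment. Of these, 66 (0.434%) were positive and 92 (0.604%) negative. Gene symbols were listed for 74 of the 158, of which 32 were positive and 42 negative. The sign was the same on every array that measured the feature in 131 of the 158, and in 155 it was the same in both dye orientations. The 158 were chosen by their ratios on these same arrays, so this agreement is largely built in. The share over all features is not given here. The ratios of the called features ran in size from 0.67 to 3.31 log2 units, and the plot of all features shows that many features with equally large ratios did not pass. At an unadjusted p under 0.05 there were 1503 features (9.87%), 671 positive (4.41%) and 832 negative (5.47%). When the 4 arrays were fitted without the other 48, no feature was called by limma with Benjamini-Hochberg adjustment and 1101 had an unadjusted p under 0.05, so the calls draw on a spread estimated over the whole series. Leaving out arrays 1, 2, 3 and 4 in turn gave 94, 196, 119 and 101 calls.

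**Figure D1:**
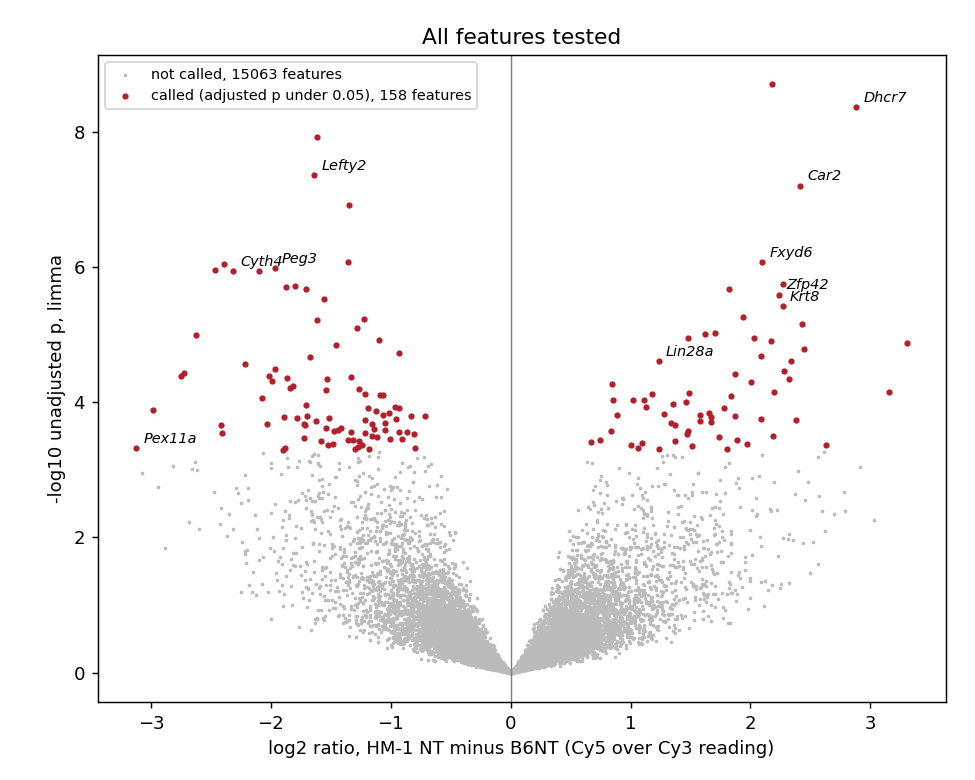
Log2 ratio of HM-1 NT over B6NT (x axis) against the -log10 unadjusted limma p (y axis) for 15221 features, with the 158 called features in red and some genes named. Dhcr7, Car2 and Lefty2 stand among the smallest p-values, and called features lie on both sides of 0.

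Among genes of the undifferentiated state, Zfp42 and Lin28a were called positive, and no member of that list was called negative with its probes averaged. Zfp42, also known as Rex1, encodes a zinc finger protein that marks the naive state of ES cells. Its log2 ratios were 3.34, 2.00, 1.60 and 2.03 on arrays 1 to 4. All 4 arrays were positive, with array 1 above the others, and the fit gave 2.24 ± 0.41 (SE, n = 4 arrays, limma adjusted p = 0.00207). The value on array 1 was an exact value held by 22 probes of that array, and with such recurring far values left out, an alternative chosen after the data were seen, the ratio was 1.86 (limma adjusted p = 0.0178). Lin28a encodes an RNA-binding protein that blocks the maturation of let-7 microRNAs. Its ratios were 0.93, 1.12, 1.40 and 1.50 on arrays 1 to 4, all positive and close together. The fit gave 1.24 ± 0.26 (limma adjusted p = 0.00929), and its adjusted p was 0.0559 when arrays were scaled to equal spread.

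The other genes of this list did not move as a group. Of 28 members tested, 17 were positive and 11 negative, with a median of 0.22 against 0.01 over all features, and the 2 calls compare with 1.04% of all features called. On single arrays the list median was 0.31, 0.14, -0.02 and 0.00, against 0.13, 0.06, -0.14 and -0.01 over all features. It was thus near 0 on the arrays with B6NT in Cy5. Members with the next smallest p were negative. Sall1, a zinc finger gene, was at -0.82 ± 0.35, and Utf1, a chromatin factor of undifferentiated cells, at -0.88 ± 0.42, and neither passed after adjustment (limma adjusted p of 0.376 and 0.466). Tested singly, 1 of the 2 probes of Utf1 passed at -1.03 ± 0.23 (limma adjusted p = 0.0224) and the other did not at -0.74 ± 0.44 (0.639). Pou5f1, which encodes the factor Oct4, was at 0.41 ± 0.22 and did not pass (limma adjusted p = 0.55). Arrays report ratios and no level, so whether a marker was expressed at all in either line cannot be read from them.

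The promoter of Zfp42 is shown with those of Tsr2 and Peg3, described below. Promoters were sought for Zfp42, Lefty2 and Tsr2, the genes called both directly and on other arrays, and for Peg3. The RefSeq table held no entry for Lefty2 and 1 for each of the others. Each is the stretch of 250 bases before to 50 bases after the annotated start in RefSeq on GRCm38.p6, and capitals mark the motifs searched on both strands, namely the TATA box TATAAA, the GC box GGGCGG, the CCAAT box, the octamer core ATGCAAA and the E-box CACGTG.
Zfp42, chr8:43306960-43307259, minus strand: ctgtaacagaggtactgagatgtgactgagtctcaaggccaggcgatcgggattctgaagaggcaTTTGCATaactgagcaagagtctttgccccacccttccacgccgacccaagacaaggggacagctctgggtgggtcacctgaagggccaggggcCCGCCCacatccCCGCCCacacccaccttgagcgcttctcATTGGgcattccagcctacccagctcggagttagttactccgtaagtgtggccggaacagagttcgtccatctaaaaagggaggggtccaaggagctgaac
Tsr2, chrX:151096494-151096793, minus strand: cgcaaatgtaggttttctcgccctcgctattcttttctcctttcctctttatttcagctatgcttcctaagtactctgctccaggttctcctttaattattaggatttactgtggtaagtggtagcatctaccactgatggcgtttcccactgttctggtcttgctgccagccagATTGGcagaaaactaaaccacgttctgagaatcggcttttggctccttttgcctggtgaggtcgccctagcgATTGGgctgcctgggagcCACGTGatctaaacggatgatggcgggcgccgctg
Peg3, chr7:6730370-6730669, minus strand: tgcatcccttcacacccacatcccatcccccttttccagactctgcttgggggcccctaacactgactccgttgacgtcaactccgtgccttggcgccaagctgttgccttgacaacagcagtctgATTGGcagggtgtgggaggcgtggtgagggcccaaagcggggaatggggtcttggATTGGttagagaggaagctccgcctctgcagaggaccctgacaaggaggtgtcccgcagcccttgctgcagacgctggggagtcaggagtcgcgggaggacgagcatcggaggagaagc
The Zfp42 stretch held ATGCAAA, the core of the octamer bound by POU factors, in its reverse complement TTTGCAT at position -185 from the start. That word stood in 4.63% of 32851 promoters of this length. It also held GGGCGG at positions -91 and -79, which 35.7% of promoters contain, and 1 CCAAT. Tsr2 held CCAAT at -75 and -3 and CACGTG at position 16, words present in 37.4% and 7.15% of promoters. Peg3 held CCAAT at -124 and -69 and none of the others, and TATAAA, present in 13.6% of promoters, was in none of the 3 stretches. These matches describe the sequence and are no sign of binding.

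Signals that pattern the early embryo were represented by 1 strong call. Lefty2 encodes a secreted inhibitor of Nodal that is a Nodal target itself. Its ratios were -2.19, -1.56, -1.52 and -1.28 on arrays 1 to 4, all negative and within about 1 log2 unit. The fit gave -1.64 ± 0.25 (SE, n = 4 arrays, limma adjusted p = 0.000168). Its neighbour in function Lefty1 was at -0.15 ± 0.44 (limma adjusted p = 0.976), with arrays on both sides of 0. The sign of Lefty1 turned without array 1, with recurring values left out and for 1 of its probes tested singly. Of 8 tested markers of primed epiblast and early mesoderm, Lefty2 was the 1 called (1.04% of all features were called), and 6 were negative. Fgf8, a growth factor of the gastrulating embryo, was at 1.04 ± 0.44 and did not pass (limma adjusted p = 0.362).

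Dhcr7 encodes the reductase of the final step of cholesterol synthesis. Its ratios were 3.15, 2.73, 3.02 and 2.64 on arrays 1 to 4, all positive and within about 0.5 log2 units. The fit gave 2.88 ± 0.39 (SE, n = 4 arrays, limma adjusted p = 3.31e-05). The rest of the pathway did not follow it. Of 12 tested genes of cholesterol synthesis, 8 were positive and 4 negative, with a median of 0.13, and Dhcr7 was the 1 called, against 1.04% of all features. Cyp51, which demethylates lanosterol earlier in the pathway, was at 0.96 ± 0.54 (limma adjusted p = 0.601), and its 2 probes disagreed in sign, at 3.10 and -0.60.

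Car2 encodes carbonic anhydrase II, a cytosolic enzyme that hydrates carbon dioxide. Its ratios were 2.44, 3.16, 2.23 and 1.82 on arrays 1 to 4. The fit gave 2.41 ± 0.37 (SE, n = 4 arrays, limma adjusted p = 0.000193), and its 3 probes gave 2.71, 2.02 and 2.37. The probe at 2.37 did not pass when tested singly (limma adjusted p = 0.173). A second carbonic anhydrase, the membrane enzyme gene Car14, was called negative at -2.08 ± 0.47 from 3 arrays (limma adjusted p = 0.0196), since array 3 held the constant top value that is not a measurement. Its ratio on array 1 was -3.53, far from the -1.22 and -1.42 of arrays 2 and 4, and recurred on 8 probes of that array. Without array 1 the ratio of Car14 was -1.32 and the call was lost (adjusted p = 0.386), as it was with arrays scaled to equal spread (0.0585). Fxyd6 and Fxyd4, small membrane proteins that tune the sodium pump, were both called positive. Fxyd6 was at 2.10 ± 0.34 (limma adjusted p = 0.00137), with arrays from 1.15 to 2.79, and lost its call when top values were kept (adjusted p = 0.614). Fxyd4 was at 3.16 ± 0.70 (limma adjusted p = 0.0178), with arrays from 1.85 to 4.68, and lost its call without array 2 or array 3 (adjusted p = 0.0561 and 0.169).

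Of the genes that oxygen shortage and glycolysis share, Egln3 was called negative. Egln3 encodes an oxygen-sensing prolyl hydroxylase that is induced by hypoxia. Its ratios were -2.08, -0.98, -2.37 and -0.66 on arrays 1 to 4, all negative and spread over more than 1 log2 unit. The fit gave -1.52 ± 0.40 (SE, n = 4 arrays, limma adjusted p = 0.0451), and the call was lost without array 1, 2 or 3 (adjusted p = 0.278, 0.0717 and 0.231). The value on array 1 was a recurring one, and without it the ratio was -1.23 (limma adjusted p = 0.0332). Vegfa, the main growth factor of blood vessels and also induced by hypoxia, was at -1.14 ± 0.34 and did not pass (limma adjusted p = 0.102). Of 20 members tested, 6 were positive, against 51.1% of all features, 1 was called, against 1.04%, and the median was -0.28, but by array it was 0.09, 0.10, -0.39 and -0.62. The sign of the list median therefore went with the dye orientation of the arrays. Over all features the array medians were themselves 0.13, 0.06, -0.14 and -0.01.

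Krt8 encodes a keratin of simple epithelia that is switched on as ES cells form trophectoderm or endoderm. Its ratios were 3.29, 2.40, 2.57 and 0.82 on arrays 1 to 4. All 4 were positive, with array 4 below the others, and the fit gave 2.27 ± 0.43 (SE, n = 4 arrays, limma adjusted p = 0.00276). Its relative Krt7 was at 1.56 ± 0.57 with all 4 arrays positive and did not pass (limma adjusted p = 0.242). Krt18, the usual partner of Krt8 in filaments, was at 0.51 ± 0.47 (limma adjusted p = 0.845), with arrays 1 and 2 positive and arrays 3 and 4 negative. Among 12 tested trophectoderm and keratin genes 8 were positive and Krt8 was the 1 called, against 51.1% of all features positive and 1.04% called. Of 16 tested markers of primitive and visceral endoderm, 10 were positive and Krt8 was again the 1 called, against the same 51.1% and 1.04%. Lama1, a laminin chain of basement membranes, was at 0.76 ± 0.36 (limma adjusted p = 0.462).

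Fibroblast genes, which stand here for feeder cells, were mostly positive. Of 32 tested, 28 were positive and 4 negative, with a median of 0.42, against 51.1% positive and a median of 0.01 over all features. The list median was 0.62, 0.70, 0.13 and 0.20 on arrays 1 to 4, against 0.13, 0.06, -0.14 and -0.01 over all features. The list median was thus positive on every array and larger on arrays 1 and 2. Leaving out 1 array at a time kept it between 0.34 and 0.45. With single genes, 2 passed (1.04% of all features were called), and 8 members were positive and none negative at an unadjusted p under 0.05. The part that feeder cells have in any other ratio was not tested.

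The 2 called fibroblast markers were Ccdc80 and Col1a2. Ccdc80 encodes a secreted protein of the matrix, and its ratios were 1.57, 2.38, 1.72 and 2.22 on arrays 1 to 4. All 4 were positive, and the fit gave 1.97 ± 0.51 (SE, n = 4 arrays, limma adjusted p = 0.0448), close to the threshold, with the call lost when any 1 of the 4 arrays was left out (adjusted p from 0.0627 to 0.204). The value on array 4 was a recurring one, and without it the call was lost as well (adjusted p = 0.0854). Col1a2, a chain of type I collagen, had ratios of 1.83, 1.02, 0.21 and 1.43. The fit gave 1.13 ± 0.27 (limma adjusted p = 0.0239), but its 4 probes ran from 0.05 to 2.83 and none of them passed when tested singly. Without array 1 or array 4 its adjusted p was 0.169 and 0.157. Col1a1, the partner chain, was at 0.44 ± 0.24 (limma adjusted p = 0.575), with array 4 negative. Igfbp3, which binds insulin-like growth factors, and Col5a1, a chain of type V collagen, were positive on all 4 arrays at 1.08 ± 0.33 and 0.76 ± 0.25 and did not pass (limma adjusted p of 0.105 and 0.163).

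Among imprinted genes expressed from the paternal copy, Peg3 was called negative and Nnat positive, 2 of 8 tested against 1.04% of all features. Peg3 encodes a large zinc finger protein. Its ratios were -1.74, -1.55, -2.16 and -2.42 on arrays 1 to 4. All 4 arrays lay within 1 log2 unit, and the fit gave -1.97 ± 0.34 (SE, n = 4 arrays, limma adjusted p = 0.00137). Nnat encodes neuronatin, a small membrane protein of neurons. Its ratios were 1.49, 1.09, 1.20 and 1.16, also close together, and the fit gave 1.24 ± 0.32 (limma adjusted p = 0.0485). The adjusted p of Nnat stood just under the threshold and missed it without array 1, 3 or 4 (0.109, 0.22 and 0.21). The other 6 paternally expressed genes tested did not pass, and among them the splicing gene Snrpn was at -0.83 ± 0.52 (limma adjusted p = 0.662). Of 17 tested genes expressed from the maternal copy none was called, and 1 was positive and none negative at an unadjusted p under 0.05, against 4.41% and 5.47% of all features. That gene was Phlda2, a brake on placental growth, at 0.51 ± 0.20 (limma adjusted p = 0.292).

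Genes that are known to be silenced by DNA methylation and used in germ cells were mostly negative, without a single call. Of 13 tested, 1 was positive and 12 were negative, with a median of -0.42, against 51.1% positive, a median of 0.01 and 1.04% called over all features, and the list median was -0.49, -0.55, -0.53 and -0.50 on arrays 1 to 4. These array medians were close in both dye orientations. Rhox5, an X-linked homeobox gene of placenta and testis, had ratios of -1.33, -0.78, -0.79 and -1.27, all negative, and the fit gave -1.04 ± 0.37 (limma adjusted p = 0.205). Its cluster neighbour Rhox6 was at -1.08 ± 0.53 (limma adjusted p = 0.503), also negative on all 4 arrays. Mael, a gene of the piRNA pathway, was at -0.56 ± 0.27 (limma adjusted p = 0.483). On the arrays that pair HM-1 with B6NT, where 0.17% of all features were called, Rhox5 was called at 2.11 ± 0.37 in B6NT over HM-1 (limma adjusted p = 0.00176). None of 31 tested factors of DNA methylation and silencing was called on the direct arrays, against 1.04% of all features. Uhrf1, which guides maintenance methylation, was at 0.99 ± 0.39 and Chaf1a, a subunit of chromatin assembly factor 1, at -1.85 ± 0.62 from 3 arrays, with limma adjusted p of 0.279 and 0.167.

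**Figure D2:**
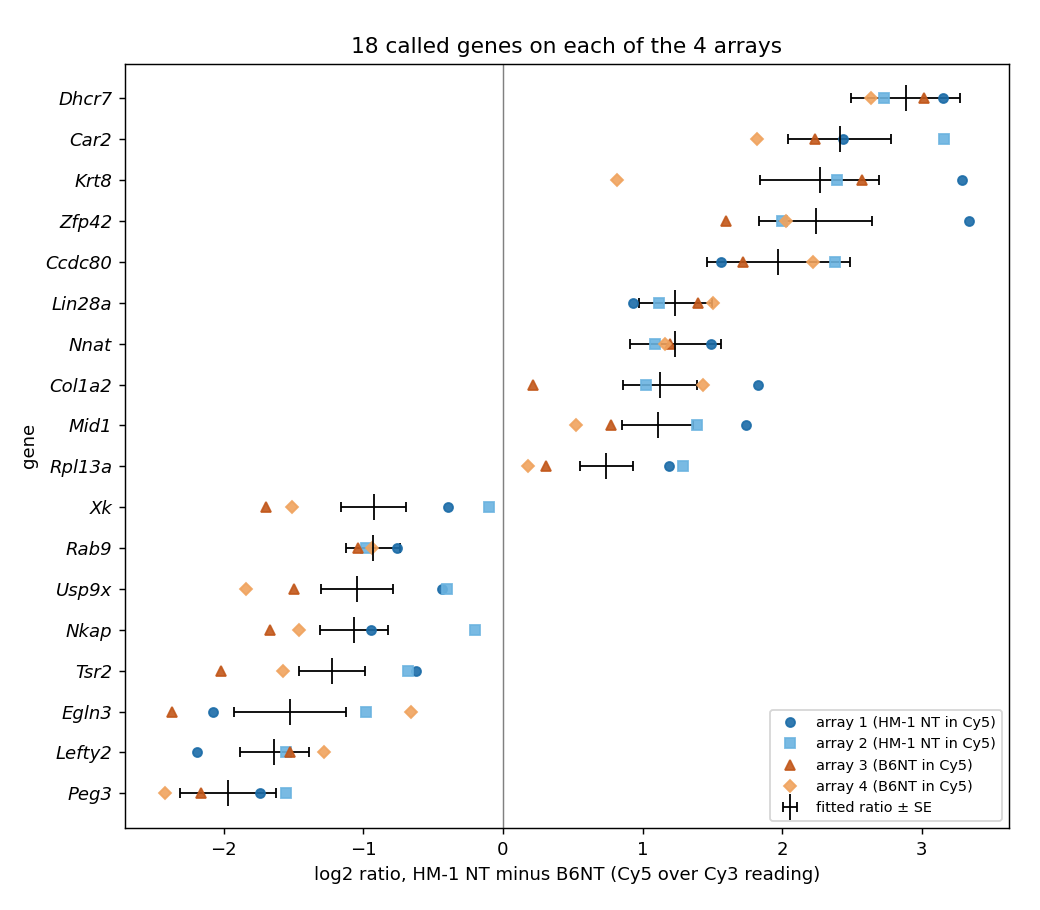
Log2 ratio of HM-1 NT over B6NT (x axis) of 18 called genes on each of the 4 arrays, with the fitted ratio and its SE as a black bar. Dhcr7, Nnat and Rab9 have their 4 arrays close together, whereas Krt8, Tsr2, Usp9x and Xk have 1 array or 1 dye orientation apart from the rest.

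X-linked genes were shifted as a group toward negative ratios. The median over 202 tested X-linked genes was -0.28, against 0.04 over 8037 autosomal genes, a difference of -0.32. On arrays 1 to 4 the difference was -0.34, -0.25, -0.33 and -0.42, so it had the same sign and a similar size in both dye orientations. The medians of the 19 autosomes ran from -0.03 to 0.13, and the plot of chromosome medians shows the X chromosome apart from all of them. Of the X-linked genes 137 (67.8%) were negative, against 46.3% of autosomal genes. Leaving out 1 array at a time kept the difference between -0.34 and -0.29. With ratios as deposited it was 0.04. That setting cannot judge the shift, since unturned ratios of opposite dye orientation cancel a difference between the lines.

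**Figure D3:**
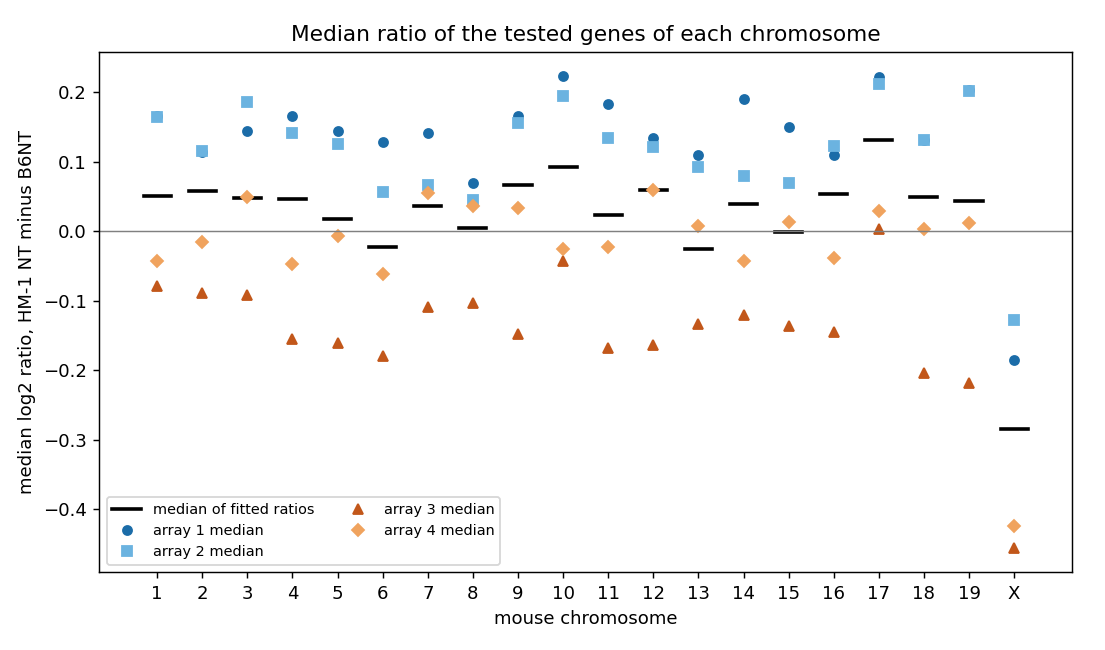
Median log2 ratio of HM-1 NT over B6NT (y axis) of the tested genes of each mouse chromosome (x axis), as a black bar for the fitted ratios and as points for each of the 4 arrays. The X chromosome, at -0.28, lies under every autosome, whose medians run from -0.03 to 0.13.

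Calls among X-linked genes were 5 negative and 1 positive, 2.97% of those tested, against 0.846% of autosomal genes. At an unadjusted p under 0.05, 13.9% of X-linked genes were negative, against 4.44% of autosomal genes. Tsr2, which acts in ribosome maturation in yeast and human, had ratios of -0.62, -0.68, -2.02 and -1.57 on arrays 1 to 4. All 4 were negative, with the larger ratios on arrays 3 and 4, and the fit gave -1.22 ± 0.24 (SE, n = 4 arrays, limma adjusted p = 0.00384). Without the dye term its adjusted p was 0.155. Rab9 encodes a small GTPase of traffic between late endosomes and the Golgi, and its ratios of -0.76, -0.98, -1.04 and -0.94 lay close together. The fit for Rab9 gave -0.93 ± 0.19 (limma adjusted p = 0.00775).

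Of the X-linked genes, Rab9, Nkap, Usp9x, Xk and Mid1 were singled out after their values were seen, as the called members of that chromosome. The nuclear factor gene Nkap, the deubiquitinase gene Usp9x and Xk, whose human counterpart carries a red cell antigen, were at -1.07 ± 0.24, -1.04 ± 0.26 and -0.93 ± 0.23. Their limma adjusted p were 0.018, 0.03 and 0.0349. These 3 genes had larger ratios on arrays 3 and 4 than on arrays 1 and 2, and each lost its call without the dye term and without array 1, 3 or 4 (adjusted p from 0.0518 to 0.276). Mid1, a ubiquitin ligase bound to microtubules, was the 1 positive call at 1.11 ± 0.26 (limma adjusted p = 0.0202). Its 3 probes gave 1.85, 1.43 and 0.05, so they disagreed, and without array 1, 2 or 3 its adjusted p was 0.127, 0.0509 and 0.0606. Several X-linked members of other lists were negative without a call. The proteasome gene Psmd10 was at -0.88 ± 0.30, the ribosomal protein gene Rpl39 at -0.53 ± 0.16, and the respiratory chain genes Ndufa1 and Cox7b at -0.69 ± 0.19 and -1.14 ± 0.42, with limma adjusted p from 0.0687 to 0.246. Ndufa1 passed with top values kept (adjusted p = 0.0402).

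The same X-linked value was taken on other arrays. On the arrays pairing HM-1 with B6NT the X-linked minus autosomal median was 0.24 for B6NT over HM-1, and on those pairing B6NT with ZFCUMNT it was -0.15 for ZFCUMNT over B6NT. On the arrays pairing HM-1 with HM-1 NT it was 0.08, on those pairing HM-1 NT with ZFCUMNT -0.04, and on those pairing #4 (B6) with B6NT 0.05, each for the second-named line over the first. On the arrays pairing HM-1 with B6PGA, which hold neither HM-1 NT nor B6NT, it was 0.22 for B6PGA over HM-1. Other arrays without these lines gave smaller values. It was -0.015 for #4 (B6) over HM-1 and 0.047 for B6PGA over #4 (B6), and the remaining comparisons lay between -0.009 and 0.052. The labels do not give the sex of the lines. Of Y-linked genes Kdm5d, a histone demethylase gene measured on 3 arrays, was at 0.59 ± 1.17 and Zfy1, a zinc finger gene, at -0.17 ± 0.46, with arrays on both sides of 0 and no call (limma adjusted p of 0.954 and 0.971).

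In 3 lists of housekeeping genes most members were positive, against 51.1% of all features, and 2 members in all were called. Of 59 tested cytosolic ribosomal protein genes 46 were positive, with a median of 0.26, and 1 was called (1.04% of all features were called). By array the median was 0.32, 0.44, 0.10 and -0.03, against 0.13, 0.06, -0.14 and -0.01 over all features. The called gene, Rpl13a, a protein of the large subunit, had ratios of 1.19, 1.29, 0.31 and 0.18 and a fit of 0.74 ± 0.19 (limma adjusted p = 0.0408). It lost the call when any 1 array was left out (adjusted p from 0.103 to 0.139), without the dye term, and when each of its 2 probes was tested alone. Of 39 tested proteasome genes 34 were positive, with a median of 0.18 and with 0.31, 0.32, 0.08 and 0.24 by array, and none was called. Psme1, a subunit of the proteasome activator, was at 0.75 ± 0.23, with all 4 arrays between 0.70 and 0.82, and did not pass (limma adjusted p = 0.116). Of 56 tested mitochondrial ribosomal protein genes 36 were positive, with a median of 0.11 and with 0.37, 0.27, -0.01 and 0.17 by array, and Mrps27 was the 1 called, at 2.38 ± 0.57 (limma adjusted p = 0.0287), with arrays from 0.51 to 5.15. Its call was lost without array 1, 3 or 4, and the ratio was 1.38 without array 3 (adjusted p = 0.406). Its value on array 1 was a recurring one, and without it the adjusted p was 0.0302.

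**Figure D4:**
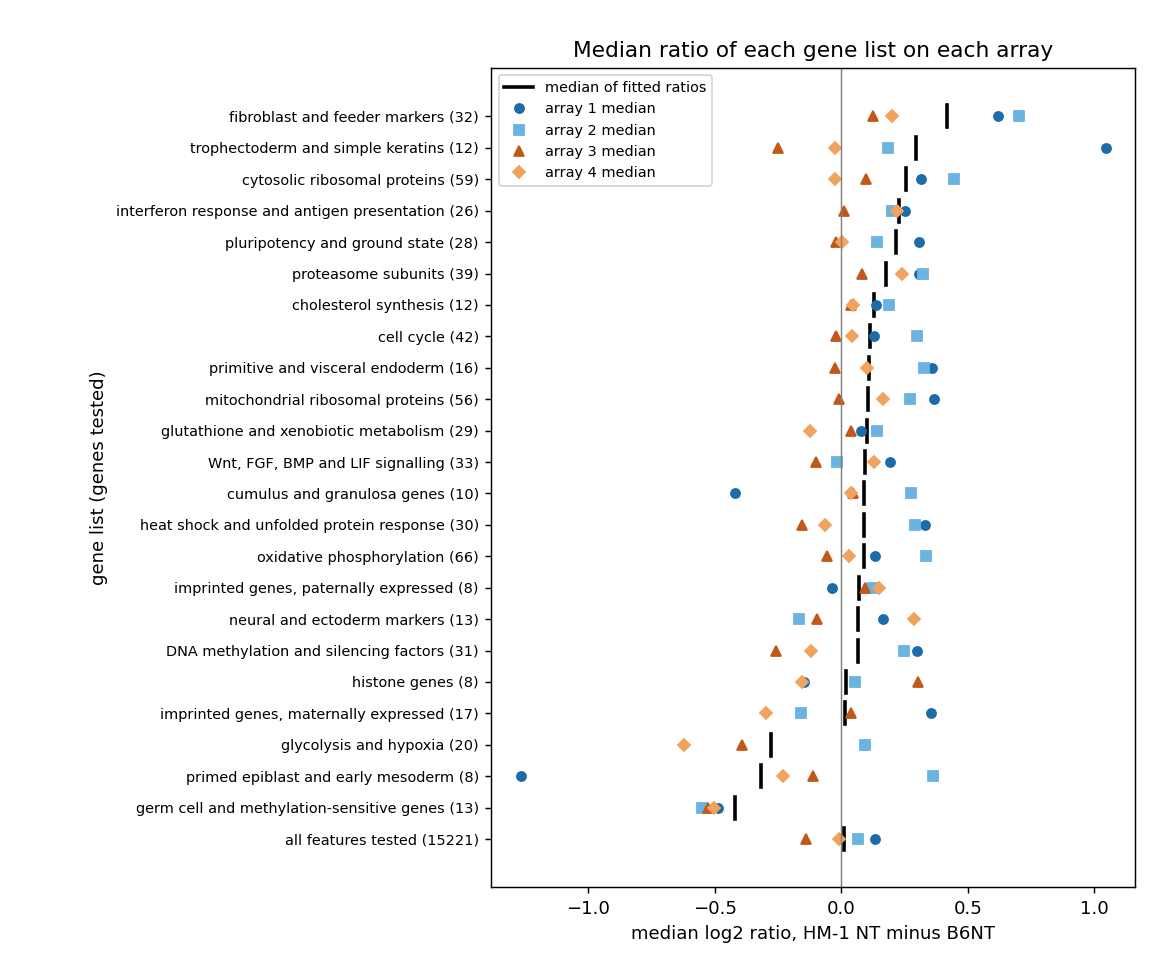
Median log2 ratio of HM-1 NT over B6NT (x axis) for each gene list with at least 5 genes tested and for all features (y axis), as a black bar for the fitted ratios and as points for each of the 4 arrays. The germ cell list is negative and the fibroblast list positive on all 4 arrays, while several lists are positive on arrays 1 and 2 and near 0 or negative on arrays 3 and 4.

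The other lists held no call, where 1.04% of all features were called and 51.1% were positive. In the list of interferon response and antigen presentation, 19 of 26 tested genes were positive with a median of 0.23, and Stat2, a transcription factor of the interferon response, was at 0.69 ± 0.22 (limma adjusted p = 0.146). In the list of heat shock and unfolded protein response, 17 of 30 were positive, and the small heat shock gene Hspb1 was at -0.78 ± 0.21 (limma adjusted p = 0.0579), negative on all 4 arrays, and passed with array weights, with arrays centred, with top values kept and with recurring values left out (adjusted p from 0.0144 to 0.0492). Glo1, which removes methylglyoxal, was at 1.33 ± 0.38 (limma adjusted p = 0.0795), positive on all 4 arrays, in a list of glutathione and xenobiotic genes where 18 of 29 were positive. Cell cycle genes had 27 of 42 positive, genes of oxidative phosphorylation 40 of 66, genes of Wnt, FGF, BMP and LIF signalling 22 of 33, histone genes 5 of 8, neural markers 8 of 13 and cumulus and granulosa genes 6 of 10. Medians of these 6 lists lay between 0.02 and 0.11. At an unadjusted p under 0.05, cumulus and granulosa genes and neural markers had no member in either direction. Over all features that share was 9.87%, so lists of 10 and 13 genes would hold few such members.

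The remaining genes with the largest called ratios mostly had arrays far apart. Cpsf2, a subunit of the complex that cleaves messenger RNA before polyadenylation, and Eno3, the muscle enolase, were called positive at 2.27 ± 0.41 and 1.94 ± 0.37 (limma adjusted p of 0.00182 and 0.00381). Cpsf2 had 0.68, 1.73, 2.50 and 4.17 on arrays 1 to 4, and Eno3 had 0.57, 0.52, 2.50 and 4.17. Both genes thus had the same exact ratios on arrays 3 and 4, which were held by 10 and 7 probes of these arrays, and both lost their call without array 4 (adjusted p = 0.0649 and 0.137). Cyth4, an exchange factor for ARF GTPases, was called negative at -2.32 ± 0.41 (limma adjusted p = 0.00137), with arrays from -4.05 to -1.23. Recurring values stood on 2 of the arrays of Cyth4, without which it was at -2.01 (adjusted p = 0.0121). Tested singly, 1 of its 2 probes passed at -2.30 (limma adjusted p = 0.00142) and the other did not at -1.79 (0.547). Intu, a planar polarity gene needed for cilia, was at -1.87 ± 0.34 (limma adjusted p = 0.00182), with -3.43 on array 1 and -0.16 on array 4. Recurring values stood on arrays 1 and 2 of Intu, so it could not be tested without them, and without array 1 its call was lost (adjusted p = 0.0654). Of 158 called features 54 (34.2%) had a recurring far value on at least 1 array, against 14.1% of all features tested. Such values lie more than 2 log2 units from 0 and called features were chosen by their ratios, so part of this excess is built in. With these values left out, 168 features were called, of which 120 were among the 158, and 52 of the 74 called genes with a symbol kept the call while 10 could no longer be tested.

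Further positive calls were Zc3h10 at 2.17, Syn2 at 3.31, Parp3 at 2.34, Spink1 at 1.87 and Lias at 1.81. Syn2, a synapsin of synaptic vesicles, and Parp3, a DNA repair enzyme, were measured on 3 arrays and had single ratios up to 4.95 and 4.16, and Zc3h10 had 2.00, 0.34 and 4.03 on arrays 1 to 3. Without array 4, Syn2 was at 2.31 and Parp3 at 1.17, and neither was called (adjusted p = 0.176 and 0.412). Syn2 also lost its call with top values kept (adjusted p = 0.339), and Parp3 without the dye term (0.0721). Leaving aside ratios as deposited and the 4 arrays alone, Spink1 kept its call in 10 of 14 settings and Lias in 6 of 14, with adjusted p up to 0.234 and 0.525. Syn2 had recurring values on 2 arrays, and Parp3, Spink1 and Lias each on 1. With these left out, Spink1 and Lias were not called (adjusted p = 0.0582 and 0.0687), and Syn2 and Parp3 could not be tested. Further negative calls were Pex11a at -3.12, Tmem115 at -2.75, Ddr2 at -2.02, Tmprss2 at -1.97, Ankrd61 at -1.90, Rcsd1 at -1.72, Fam161b at -1.70, Cldn14 at -1.54 and F12 at -1.54. Pex11a, which acts in peroxisome division, was negative on its 3 arrays at -3.82, -2.52 and -3.21, but had a limma adjusted p of 0.048 and kept its call in 5 of 11 settings. Ddr2, a receptor kinase for collagen, and Tmprss2, a membrane serine protease, were both much more negative on arrays 1 and 3 than on arrays 2 and 4. Without array 1, Ddr2 was at -1.38 and Tmprss2 at -1.10, and neither was called (adjusted p = 0.216 and 0.276), nor was either without array 3. Ankrd61 and F12 were at -0.89 and -0.75 without array 2, Cldn14 was at -0.67 without array 4 and Rcsd1 at -0.66 for 1 of its probes, with the call lost in each case (adjusted p from 0.449 to 0.924). Ankrd61 kept its call in 6 of 14 settings, Rcsd1 in 7 of 14, Cldn14 in 6 of 11 and F12 in 11 of 12. Recurring values stood on 2 arrays of Pex11a and Tmprss2 and on 1 array of Ddr2, Ankrd61, Rcsd1, Fam161b and Cldn14. With these left out, Fam161b was at -1.42 and called (adjusted p = 0.0295), Ddr2, Ankrd61 and Rcsd1 were not called (adjusted p from 0.14 to 0.17), and the other 3 could not be tested. Among the 40 called genes named here, Dhcr7, Lefty2, Car2, Peg3, Fam161b, Zfp42, Krt8, Rab9, Zc3h10 and Tmem115 kept the call in every alternative that could be run on them, other than ratios as deposited and the fit of the 4 arrays alone. For Car2 this counts its probe with the smallest ratio, and its probe at 2.37 did not pass when tested singly (limma adjusted p = 0.173). For Zc3h10 and Tmem115, 12 of 14 settings could be run. Neither could be tested without array 3, their only measured array with B6NT in Cy5. Neither had a value on array 4, so leaving out that array removed none of their own values. The same holds for the unmeasured array of each gene with 3 arrays, F12 among them.

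HM-1 NT and B6NT were also set against each other through 16 arrays outside the direct comparison. One route went through HM-1 (HM-1 NT over HM-1 minus B6NT over HM-1) and the other through ZFCUMNT, and the indirect value is their mean. The lines are the same, and whether the RNA was the same is not stated. Of 13951 features 6 (0.043%) were called by limma on these arrays, and Lefty2, Tsr2 and Zfp42 were called both ways. Lefty2 was at -1.72 ± 0.25 (SE, limma adjusted p = 0.000198) against -1.64 on the direct arrays, with -1.21 through HM-1 and -2.24 through ZFCUMNT. Tsr2 was at -1.17 ± 0.24 (limma adjusted p = 0.0345) against -1.22, with -1.17 through each route. Zfp42 was at 2.21 ± 0.42 (limma adjusted p = 0.0345) against 2.24, with 3.14 through HM-1 and 1.28 through ZFCUMNT. These 3 genes had direct and indirect values within 0.1 log2 units of each other. Leaving out 1 of the 16 arrays, Lefty2 kept its indirect call in 16 of 16 cases, Tsr2 in 4 of 16 (adjusted p from 0.0267 to 0.161) and Zfp42 in 4 of the 15 in which it could be tested (0.0221 to 0.123). Tsr2 also lost the indirect call without the dye term, with array weights (adjusted p = 0.0566) and with the replicate block (0.0552). On the route through HM-1 alone Lefty2 was not called (adjusted p = 0.703), on the route through ZFCUMNT alone Zfp42 was not (0.721), and Tsr2 was called on neither (0.678 and 0.304).

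**Figure D5:**
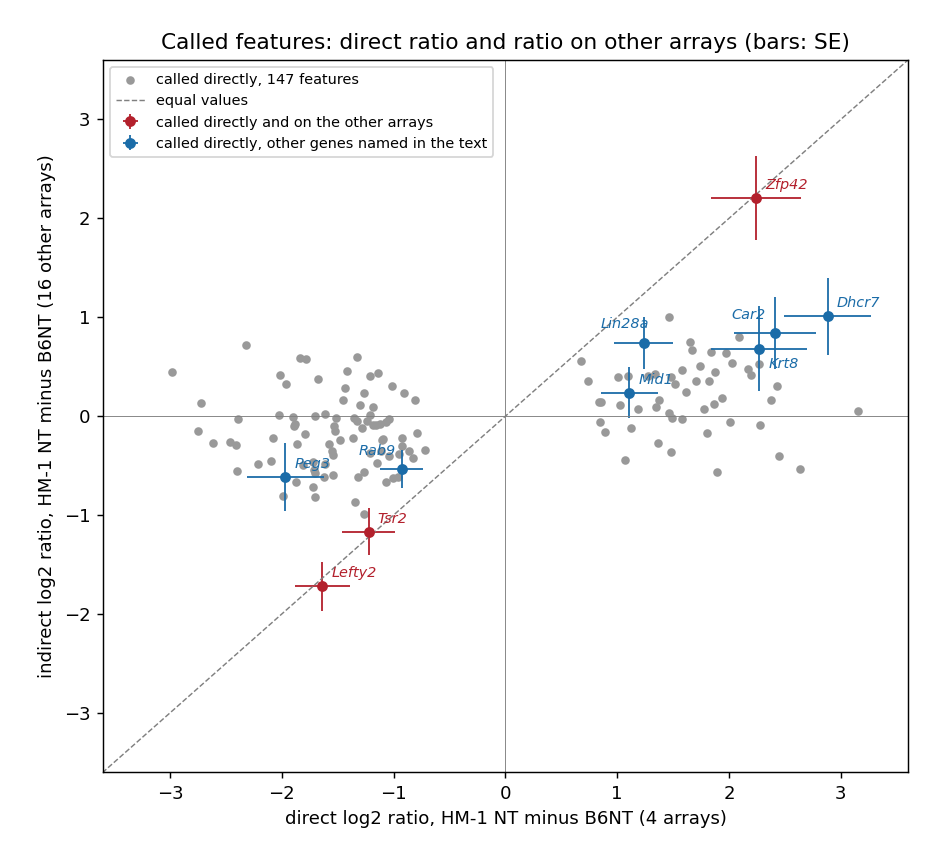
Direct log2 ratio of HM-1 NT over B6NT from the 4 arrays (x axis) against the indirect ratio from 16 other arrays (y axis) for 147 called features, with SE bars for the named genes and a dashed line of equal values. Lefty2, Tsr2 and Zfp42 lie near the line, while most other features lie closer to 0 on the y axis than on the x axis.

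Most calls were far smaller on the other arrays. Over the 147 called features with an indirect value, the median size was 1.57 log2 units on the direct arrays and 0.35 on the other arrays, the direct values having been chosen for their size. The indirect value had the same sign in 109 of the 147 (74.1%), against 56.8% of 13193 features measured both ways. Dhcr7 was at 2.12 through HM-1 and -0.11 through ZFCUMNT, Car2 at 1.84 and -0.16, Peg3 at -1.74 and 0.50, and Lin28a at 1.36 and 0.12. For these 4 genes the value through HM-1 had the sign and roughly the size of the direct one and the value through ZFCUMNT was near 0 or opposite. Krt8 was at 0.92 and 0.44 and Rab9 at -0.87 and -0.21. The X-linked genes had an indirect median of -0.21, and the germ cell list -0.11. No feature passed in the test of direct minus indirect values (limma, 752 of 13193, or 5.7%, at an unadjusted p under 0.05) or in that of the difference between routes (limma, 666 of 13951, or 4.77%), so a difference between routes was not shown for any single gene.

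Some of the called genes were also followed in single comparisons that hold 1 of the lines. On the arrays pairing HM-1 with B6NT, Dhcr7 was at -1.89 ± 0.39, Zfp42 at -2.90 ± 0.41, Peg3 at 1.84 ± 0.34 and Rab9 at 1.22 ± 0.19 for B6NT over HM-1 (SE, n = 4 arrays), and all 4 were called (limma adjusted p of 0.0154, 0.000134, 0.00489 and 0.000334). Car2, Krt8, Tsr2 and Lin28a were not called there, at -0.63, 0.44, 0.89 and -0.87, and 0.17% of all features were. On the arrays pairing HM-1 with HM-1 NT, Dhcr7, Zfp42, Peg3 and Rab9 were at 0.23, 0.24, 0.10 and 0.35. None was called, against 0.254% of all features there. For ZFCUMNT over B6NT these 4 genes were at -0.17, 0.58, 0.32 and -0.46, without a call. For B6NT over #4 (B6) they were at -0.22, 0.08, 0.11 and 0.92, and only Rab9 was called (limma adjusted p = 0.0127). Lefty2 differed from these 4 genes. It was called at -1.08 ± 0.25 for HM-1 NT over HM-1 and at 0.13 ± 0.25 for B6NT over HM-1 it was not (limma adjusted p = 0.0387 and 1). Lefty2 was also called at -2.65 ± 0.25 for ZFCUMNT over B6NT and at 2.25 ± 0.25 for B6NT over #4 (B6) (limma adjusted p = 1.85e-09 and 1.24e-07), on arrays where 0.124% and 0.245% of all features were called.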

How the data were processed

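Gene expression was measured on two-colour cDNA arrays. Per the labels' protocols, 20 microgram of total RNA was reverse transcribed and labelled indirectly with Cy3 or Cy5. The deposited values are log ratios of the 2 channels, read here as log2 from their range. The scanner, background correction, normalization and dye in the numerator are not given in the sources used here, and the number of arrays limits the precision. Ratios were turned by the dye labels, each array's constant top value (above 12, on 76 to 174 probes) was dropped, and probes of a gene were averaged. Symbols came from the platform annotation for 12771 probes, while 8023 had none. Using lmFit and eBayes of limma 3.58.1 (R 4.3.3), a joint model of the 52 arrays estimated 13 comparison effects and, for each feature, a dye effect. A feature was tested if at least 3 of the 4 arrays measured it in both dye orientations, and p-values were adjusted by Benjamini-Hochberg at 0.05.

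The genes named are the 15 largest positive and 15 largest negative called ratios with the same sign on every array, called members of 24 gene lists, genes called directly and indirectly, and up to 4 members a list by smallest p. Krt18, Lefty1, Col1a1, Pou5f1 and the called X-linked genes other than Tsr2 were named after their values were seen. The comparison, lists and tests were chosen with earlier results of these data known. The fit was tested on simulated data. It called 13 of 100 features changed by 1 log2 unit and 63 of 100 changed by 2, all with the right sign. It also called 4 unchanged features. A gene that did not pass is thus not shown to be equal in the 2 lines. Alternatives changed the dye turn, top values, centring, scaling, array weights, dye term, probe averaging, array number as a block and the arrays left out, and leaving out recurring far values was added after the data were seen. With probes tested singly, a gene was judged by its probe with the smallest ratio in the direction of the fit. Promoter sequences are from RefSeq, GRCm38.p6.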

Additional observations from a re-analysis of the deposited data

Results flagged for a closer look

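Pou5f1 had 1 array apart from the other 3. Its log2 ratio of HM-1 NT over B6NT was 0.005 on array 4, while arrays 1 to 3 lay between 0.53 and 0.59. This was the 1 of 85 values and list medians examined in which the gap to the nearest array exceeded Dixon's 95% limit, and chance alone puts about 1 in 20 past it. The fitted ratio of Pou5f1 was not called.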

How the results depend on the processing

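With ratios as deposited, a difference between lines cancels between the dye orientations, so this setting cannot judge the ratios between lines. It gave 159 calls (95 positive, 64 negative), 7 of them among the 158. The indirect contrast had 10 calls and direct minus indirect 16. The X-linked minus autosomal median was then 0.039, while it lay between -0.354 and -0.269 in the other settings. These genes then had the opposite sign, at log2 ratios of Peg3 at 0.32, Cyth4 at 0.32, Cpsf2 at -1.06, Fam161b at 0.45, Eno3 at -1.39, Tsr2 at 0.57, Zc3h10 at -0.59, Syn2 at -1.51, Rab9 at 0.056, Parp3 at -0.56, Lin28a at -0.21, Tmem115 at 0.64, Fxyd4 at -0.19, Nkap at 0.50, Spink1 at -1.04, Mrps27 at -1.06, Usp9x at 0.62, Rcsd1 at 0.20, Cldn14 at 1.27, Xk at 0.68, Utf1 at 0.33, Sall1 at 0.18, Igfbp3 at -0.38, Mael at 0.29, Vegfa at 0.40, Psmd10 at 0.24, Ndufa1 at 0.42, Rpl39 at 0.46, Krt7 at -0.38, Hspb1 at 0.27, Glo1 at -0.21, Stat2 at -0.15, Cox7b at 0.30, Chaf1a at 1.20, Cyp51 at -1.42, Kdm5d at -0.57 and Zfy1 at 0.095, and indirect Lefty2 was at 0.080.

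The direct count was 263 with top values kept (111 positive, 152 negative), 58 with arrays scaled to equal spread, 78 without the dye term (43 positive, 35 negative, against 66 and 92) and 0 by limma with the 4 arrays alone (1101 at an unadjusted p under 0.05). Leaving out 1 of the 4 arrays gave 94 to 196. The indirect count of 6 was 15 with scaling, 2 without the dye term, 1 without the route through ZFCUMNT and 1 to 6 without 1 of its arrays. Arrays of the same number did not deviate together across comparisons, so the numbers were not taken as pairs, and the fit with the replicate block gave 151 direct calls, 145 of them shared, and 2 indirect calls. Among probes tested singly, 1 probe of Cyp51 was at -0.60 and 1 of Lefty1 at 0.0023. Lefty1 was at 0.086 with recurring values left out, an alternative added after the data were seen. Without 1 array, Lefty1 ran from -0.47 to 0.25 and Zfy1 from -0.38 to 0.13. The causes of these changes were not tested. With 4 arrays a comparison, the number of arrays limits the precision.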
